A study of Mus musculus with 12 samples.

Results

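The genes described here are 10 subunits of the BAF complex, the mammalian SWI/SNF chromatin remodeller: Smarca4, Smarca2, Arid1a, Arid1b, Actl6a, Smarcd1, Smarcd2, Smarcd3, Dpf2 and Dpf3. They were taken by name from a gene count table with 48709 gene intervals, and each name matched 1 interval. All 10 passed the filter on low counts that left 28846 genes for testing. Total RNA had been sequenced from the cardiogenic region, the part of the embryo that forms the heart, dissected from mouse embryos on embryonic day 8, 8.5, 9.5 or 14, written below as E8, E8.5, E9.5 and E14. There were 3 libraries per stage and 12 in all. The labels name no strain, genotype or treatment, so the stages differ only in age as far as the labels say. No label says whether a library holds 1 embryo or a pool, or whether libraries of a stage came from separate litters. The p-values below therefore measure only the spread between these libraries, which may be technical.

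BAF complexes use the energy of ATP to slide or evict nucleosomes, which opens or closes DNA to transcription factors. A complex is put together from alternative subunits encoded by paralogous genes. It holds a single ATPase, either SMARCA4 (BRG1) or SMARCA2 (BRM), and a single SMARCD protein, and its canonical form holds ARID1A or ARID1B. In the mouse embryo Smarca4 and Smarcd3 are required for heart formation, and Smarcd3 is known as the cardiac and muscle member of its family.

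The E8 libraries held 101231014 to 122785175 counts, the E8.5 libraries 101202593 to 111404849, the E9.5 libraries 73056001 to 90620692 and the E14 libraries 56574386 to 97187372. The lowest count of any of the 10 subunits in any library was 880 (Smarcd2) and the highest was 35191 (Dpf3). Levels are given as CPM, the counts scaled to a common library size. The 8 cardiomyocyte markers summed to 20789 to 21191 CPM in E8 libraries, 16990 to 25714 CPM in E8.5 libraries, 17038 to 18910 CPM in E9.5 libraries and 22903 to 25698 CPM in E14 libraries. None of the 8 was at 0 throughout a stage, so cardiomyocyte transcripts were present at each stage. The 8 did not share a course. Ttn ran from 3149 to 14423 CPM between libraries, and Myl7 averaged 648 CPM at E14 and 1448 CPM at E8. Markers of other cell types differed with stage. The 6 fibroblast and matrix markers summed to 2188 to 2249 CPM at E14, against 119 to 126 CPM at E8. The 5 leukocyte markers summed to 41.6 to 49.5 CPM at E14, against 9.27 to 10.5 CPM at E8, and the 6 erythroid markers to 7838 to 26044 CPM at E14, against 365 to 383 CPM at E8. Most of the erythroid sum at E14 was Hba-a1 (mean 16666 CPM). Of the 6, only Hbb-bh1 went the other way, with a mean of 6.31 CPM at E14 and 195 CPM at E8. The 5 epicardial markers summed to 156 to 172 CPM at E14, against 9.46 to 9.54 CPM at E8, and the 6 endothelial markers to 643 to 663 CPM at E14, against 382 to 386 CPM at E8. The 10 cell cycle genes summed to 1257 to 1421 CPM at E14, against 1658 to 1692 CPM at E8. Among these Mki67 went the other way, with 371 to 394 CPM at E14 and 346 to 352 CPM at E8. Ccna2 was near level, with means of 138 CPM at E14 and 139 CPM at E8. The libraries hold RNA of whole tissue, so fewer cells of a type and less RNA per cell cannot be told apart, and the part of these markers in the results below was not tested.

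The E8.5 libraries were unlike each other. Replicate 3 had 1590 CPM of summed visceral endoderm markers (6 genes), and replicates 1 and 2 had 145 and 53.0 CPM. The same libraries also differed by gene length, which matters here because the 10 intervals run from 9.79 kb (Smarcd2) to 353 kb (Arid1b). Relative to the mean of the E8 libraries, coding genes over 100 kb had a median log2 difference of 0.33 in E8.5 replicate 1, 0.58 in replicate 2 and 0.13 in replicate 3. Coding genes under 20 kb had medians of -0.16 in replicate 1, -0.33 in replicate 2 and -0.07 in replicate 3. The medians covered 1666 long and 3402 short genes. The calls at E8.5 against E8 and at E9.5 against E8.5 are therefore given with and without E8.5 replicate 3, and with library offsets that follow gene length, that is, a scaling in which each library's factor varies smoothly with the length of the interval. The E9.5 libraries differed in these markers as well. Visceral endoderm markers summed to 8.43 CPM in E9.5 replicate 1 and to 73.3 and 130 CPM in replicates 2 and 3, epicardial markers to 34.0, 78.0 and 107 CPM and erythroid markers to 2928, 5783 and 7793 CPM. Without E9.5 replicate 1 the same number of subunits, 7 of 10, was called at E9.5 against E8.5 and at E14 against E9.5, in the same numbers of higher and lower. In the fit of all 12 libraries 37.0% and 50.0% of all genes were called in these comparisons. The shares of all genes without that library are not given.

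**Figure D1:**
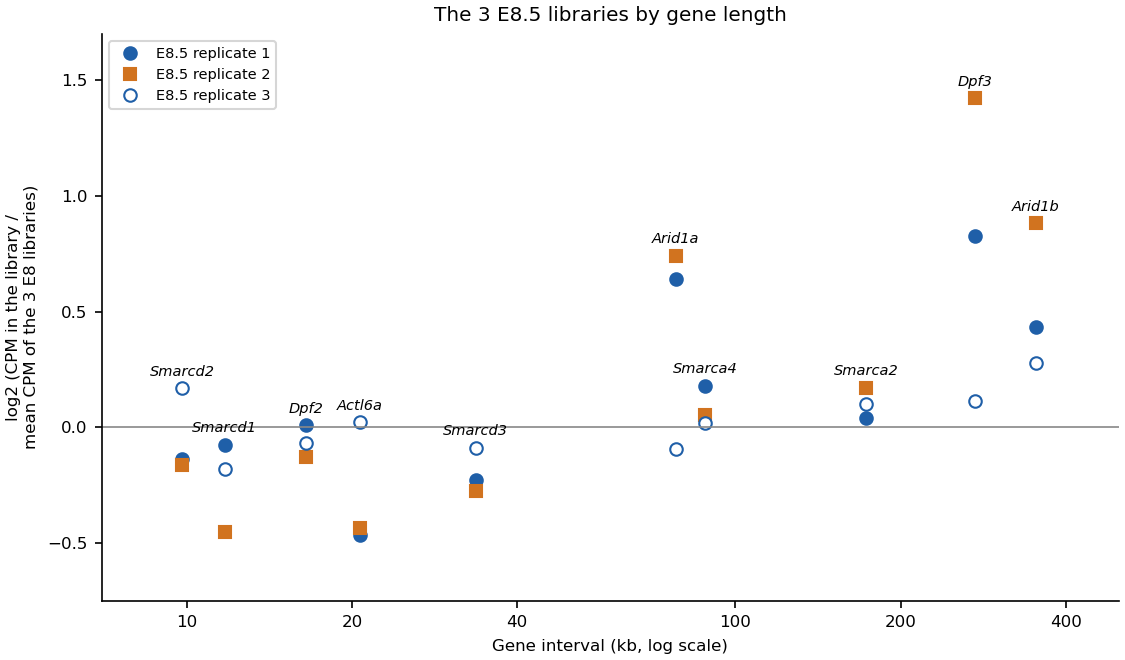
Level of each of the 10 subunits in each E8.5 library, as log2 of its CPM over the mean CPM of the 3 E8 libraries (vertical axis), against the length of the gene interval in kb (horizontal axis, log scale). Dpf3, Arid1a and Arid1b stood highest in replicates 1 and 2 (0.43 to 1.42), while in replicate 3 they lay between -0.09 and 0.28.

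The ATPase pair is encoded on different chromosomes. In the table's coordinates (GRCm38) Smarca4 spans chr9:21616169-21704230 on the plus strand and Smarca2 spans chr19:26605050-26778322 on the plus strand. The Smarcd genes lie at chr15:99702287-99713995 (Smarcd1, plus strand), chr11:106263179-106272972 (Smarcd2, minus strand) and chr5:24590818-24624411 (Smarcd3, minus strand). Stretches just upstream of annotated exons are shown for the ATPase genes, which moved in opposite directions by E14, and for Smarcd3, the cardiac Smarcd gene. They come from RefSeq windows of 250 bases before each gene's start (GRCm38.p6), cut where a GENCODE exon of the gene begins, and are written on the gene's own strand. Capitals mark the GC box GGGCGG or its reverse complement.
Smarca4, chr9:21615919-21616168: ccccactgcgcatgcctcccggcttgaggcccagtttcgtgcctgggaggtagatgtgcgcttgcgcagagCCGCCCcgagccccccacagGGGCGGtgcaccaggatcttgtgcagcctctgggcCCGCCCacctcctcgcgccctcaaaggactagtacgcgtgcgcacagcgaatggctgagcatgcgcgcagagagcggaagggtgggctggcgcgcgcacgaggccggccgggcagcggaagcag
Smarca2, chr19:26604910-26605049: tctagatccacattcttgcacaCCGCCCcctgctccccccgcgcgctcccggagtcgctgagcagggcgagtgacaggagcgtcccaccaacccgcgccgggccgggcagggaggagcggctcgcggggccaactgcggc
Smarcd3, chr5:24602013-24602252: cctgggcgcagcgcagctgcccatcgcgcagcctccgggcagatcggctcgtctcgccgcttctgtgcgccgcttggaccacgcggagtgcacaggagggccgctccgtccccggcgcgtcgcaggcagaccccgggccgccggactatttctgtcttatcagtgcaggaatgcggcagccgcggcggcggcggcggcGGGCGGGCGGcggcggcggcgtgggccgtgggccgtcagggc
All 3 windows were rich in CpG. Over the whole 250 bases the Smarca4 window held 25 CpG, the Smarca2 window 28 and the Smarcd3 window 38, beside a median of 6 over 32851 RefSeq windows of the same length. In the whole windows the GC box was found 3 times for Smarca4, 2 times for Smarca2 and 2 overlapping times for Smarcd3, and 32.7% of all windows held it on either strand. Only 140 bases are printed for Smarca2, so not both of its matches are shown. None of the 3 windows held CCAAT (33.8% of all windows), TATAAA (12.4%) or CACGTG (6.02%) on either strand. The RefSeq starts of Smarcd3 and Smarca2 lie inside the table's intervals of these genes. These matches describe letters only, since no factor binding was measured.

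Over the whole time course the largest differences among the 10 subunits were in Dpf3, Smarca2, Smarcd1 and Smarcd3. At E14 Smarca2 was higher than at E8, while Smarca4, Smarcd1, Smarcd3, Actl6a, Dpf2 and Dpf3 were lower, so 7 of 10 subunits passed edgeR's quasi-likelihood test at an adjusted p under 0.05 (called below). That share is close to the background, since 60.7% of all 28846 genes were called between these stages, 31.5% higher and 29.2% lower. The median log2 fold change, E14 over E8, was -0.47 over the 10 subunits and 0.04 over all genes tested. All 3 E14 libraries lay above all 3 E8 libraries for 1 subunit (36.9% of all genes) and below them for 7 (35.5% of all genes). With the 4 stages tested together, 9 of 10 subunits were called, against 72.3% of all genes, and the exception was Smarcd2 (edgeR adjusted p = 0.932).

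**Figure D2:**
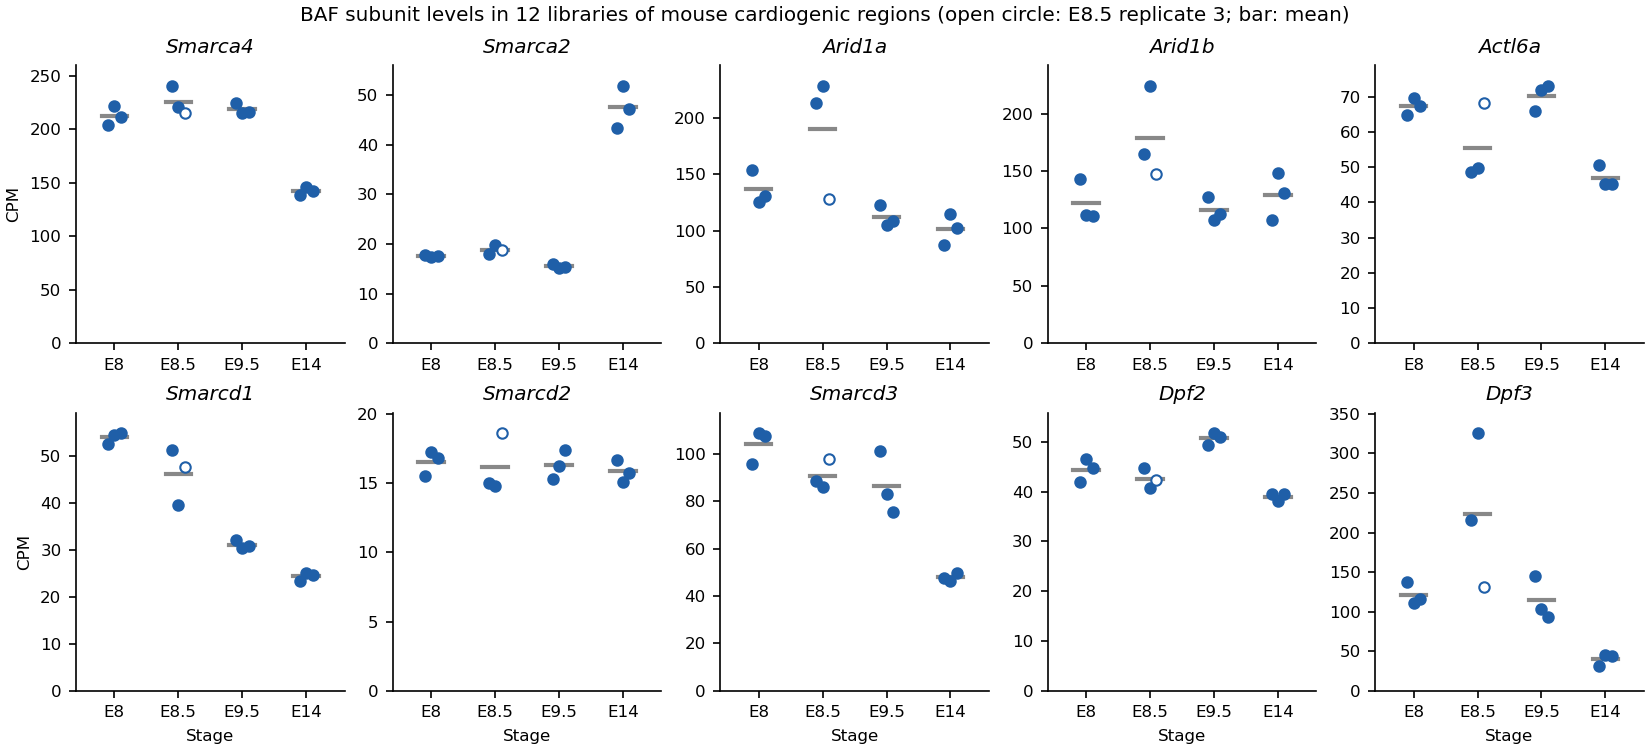
CPM of the 10 subunits in each of the 12 libraries (vertical axes start at 0; points are libraries, bars are stage means of 3 libraries, and the open circle is E8.5 replicate 3). Smarca2 stood between 43.4 and 51.8 CPM at E14 and between 15.1 and 19.7 CPM in the 9 earlier libraries, whereas Smarcd2 stayed between 14.8 and 18.6 CPM in all 12.

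At E14 against E9.5, 7 of 10 subunits were called, 1 higher (Smarca2) and 6 lower (Smarca4, Actl6a, Smarcd1, Smarcd3, Dpf2 and Dpf3), where 50.0% of all genes were called, 25.4% higher and 24.6% lower. The members' median log2 fold change was -0.37, beside 0.01 over all genes. The E14 libraries lay above all E9.5 libraries for 1 subunit (32.3% of all genes) and below them for 6 (30.7%). At E9.5 against E8.5, 7 of 10 were also called, where 37.0% of all genes were: Actl6a and Dpf2 were higher at E9.5 (18.4% of all genes) and Smarcd1, Smarca2, Arid1a, Arid1b and Dpf3 were lower (18.5%). The members' median there was -0.18 and that of all genes -0.03. The E9.5 libraries lay above all E8.5 libraries for 1 subunit (22.4% of all genes) and below them for 4 (21.1%). The count of calls depended on the fit: 3 of 10 were called with the 2 stages fitted alone, 3 with offsets that follow gene length and 4 without E9.5 replicate 2. At E8.5 against E8 none of the 10 was called by edgeR, where 1.18% of all genes were (0.891% higher and 0.291% lower) and 8106 genes reached 0.05 before adjustment. The E8.5 libraries lay above all E8 libraries for 2 subunits (13.0% of all genes) and below them for 1 (13.5%). DESeq2 called 2, both higher at E8.5 (Arid1b and Dpf3). Without E8.5 replicate 3, edgeR called 5 of 10, with Arid1a, Arid1b and Dpf3 higher at E8.5 and Smarcd1 and Actl6a lower. With single libraries left out in turn, the count ran from 0 to 5. The shares of all genes in this paragraph belong to the first edgeR fit, with all 12 libraries and no offsets for gene length. Shares for the other fits are not given, so their counts of called subunits have no background beside them and should not be set against 1.18% or 37.0%.

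**Figure D3:**
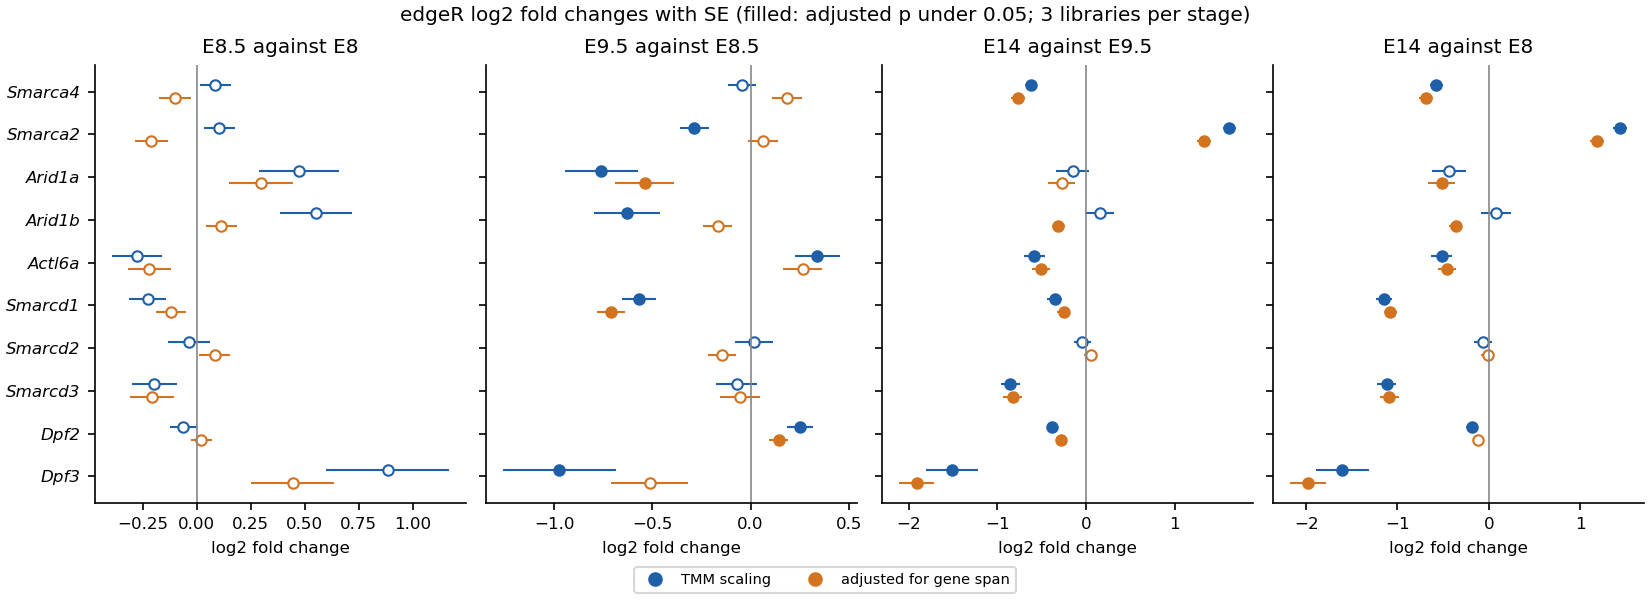
edgeR log2 fold changes of the 10 subunits with SE for E8.5 against E8, E9.5 against E8.5, E14 against E9.5 and E14 against E8 (horizontal axes; later stage over earlier; 3 libraries per stage), with the usual scaling in blue and offsets that follow gene length in orange. Filled points have an adjusted p under 0.05; Arid1b against E8 at E14 stood at 0.08 under the first and at -0.36 under the second.

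Smarca4 encodes BRG1, the main ATPase of BAF complexes in dividing embryonic cells. It measured 204, 222 and 212 CPM at E8, 241, 221 and 215 CPM at E8.5, 225, 215 and 216 CPM at E9.5 and 139, 147 and 142 CPM at E14. The first 3 stages overlapped, and all E14 libraries lay below the other 9. Smarca4 averaged 143 ± 3.83 CPM at E14 and 219 ± 5.47 CPM at E9.5 (SD, n = 3 each), a log2 fold change of -0.62 ± 0.07 (SE; edgeR adjusted p = 2.06e-05). Against E8 the log2 fold change at E14 was -0.58 ± 0.07 (edgeR adjusted p = 2.23e-05).

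Smarca2 encodes BRM, the alternative ATPase, which in adult mouse tissues is abundant in cells that have left the cell cycle. It measured 17.8, 17.4 and 17.5 CPM at E8, 18.0, 19.7 and 18.8 CPM at E8.5, 15.9, 15.1 and 15.4 CPM at E9.5 and 43.4, 51.8 and 47.2 CPM at E14. The E14 libraries stood well clear of all others. Smarca2 averaged 47.5 ± 4.22 CPM at E14 and 15.5 ± 0.373 CPM at E9.5 (SD, n = 3 each), 3.07-fold higher (log2 1.62 ± 0.07 SE; edgeR adjusted p = 2.13e-08). Against E8 (17.5 ± 0.215 CPM) the E14 level was 2.71-fold higher (log2 1.44 ± 0.07; edgeR adjusted p = 2.12e-08). With offsets that follow gene length the log2 fold changes at E14 were 1.33 against E9.5 and 1.18 against E8, both still called. The E9.5 libraries lay below all E8.5 libraries (log2 -0.29 ± 0.07, edgeR adjusted p = 0.0101), and without E8.5 replicate 3 this was -0.26 (adjusted p = 0.0173). It turned to 0.06 with offsets that follow gene length and was not called with the 2 stages fitted alone (-0.26, adjusted p = 0.0685). An antisense gene, 4931403E22Rik, overlaps the end of Smarca2 by 9522 bases and held 17.8% to 33.1% as many counts as Smarca2. With its counts and those of the other overlapping interval taken off, the log2 fold change of Smarca2 was 1.50 at E14 against E8 and -0.48 at E9.5 against E8.5 (adjusted p = 0.00257).

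Set against each other within a library, the ATPase genes kept a near constant ratio up to E9.5 and a different one at E14. The Smarca2 to Smarca4 count ratio was 0.0871, 0.0783 and 0.0824 at E8, 0.0748, 0.0894 and 0.0875 at E8.5, 0.0704, 0.0702 and 0.0714 at E9.5 and 0.312, 0.354 and 0.332 at E14. The E14 ratios lay above the other 9, and the E9.5 ratios lay just below the rest. The mean was 0.333 ± 0.0206 at E14 and 0.0826 ± 0.0044 at E8 (SD, n = 3 each), 4.02-fold higher by the mean log2 ratios (difference 2.01). Over the 4 stages the exact permutation test of the log2 ratio gave p = 0.00110 (369600 assignments of libraries to stages, smallest possible p = 6.49e-05, adjusted p = 0.00276 over the 5 ratios tested). An exact permutation test of a pair of stages with 3 libraries each cannot go below p = 0.1, so neighbouring stages are described by overlap alone. Divided by exonic length (6475 bases for Smarca4 and 14269 for Smarca2), the ratio was 0.151 ± 0.00936 at E14 and 0.0375 ± 0.002 at E8, so Smarca4 remained the higher of the pair per kb at both stages.

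**Figure D4:**
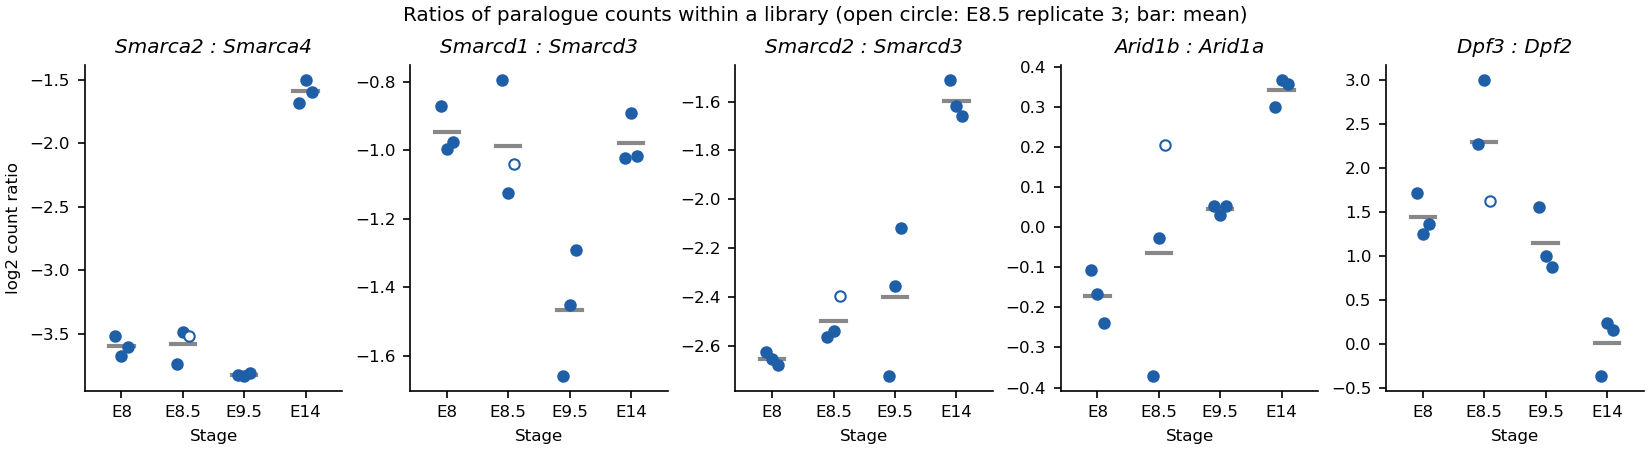
log2 count ratios of paralogues within each library (vertical axes, different ranges), by stage; points are libraries, bars are means of 3 and the open circle is E8.5 replicate 3. Smarca2 to Smarca4 stood between -1.68 and -1.50 at E14 and between -3.83 and -3.48 before, and Smarcd1 to Smarcd3 was lowest at E9.5.

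Arid1a and Arid1b encode the large DNA-binding subunits that define canonical BAF, and one or the other is present in a complex. Arid1a measured 154, 126 and 130 CPM at E8, 213, 228 and 128 CPM at E8.5, 123, 105 and 109 CPM at E9.5 and 87.2, 115 and 102 CPM at E14. Arid1b measured 143, 112 and 110 CPM at E8, 165, 224 and 148 CPM at E8.5, 128, 107 and 113 CPM at E9.5 and 107, 148 and 131 CPM at E14. Both were high in E8.5 replicates 1 and 2, and the E14 libraries of Arid1a all lay below those of E8, while those of Arid1b overlapped them. Arid1a was lower at E9.5 than at E8.5 (log2 -0.76 ± 0.19 SE, edgeR adjusted p = 0.00876), and this was called with offsets that follow gene length (-0.54, adjusted p = 0.0169) and without E8.5 replicate 3 (-0.95, 1.41e-04) too. Arid1b was lower at E9.5 by the same test (log2 -0.63 ± 0.17, edgeR adjusted p = 0.0128), also without E8.5 replicate 3 (-0.72, adjusted p = 0.00492), but not with those offsets (-0.17, adjusted p = 0.0935) nor without E9.5 replicate 2 (-0.57, adjusted p = 0.0544). Arid1a at E14 against E8 had a log2 fold change of -0.43 ± 0.19 and missed the threshold (edgeR adjusted p = 0.0634). It was called lower with offsets that follow gene length (-0.51, adjusted p = 0.0104), with the 2 stages fitted alone (-0.46, 0.00643), with RLE factors (-0.46, 0.0469), with small RNA genes left out (-0.46, 0.0401) and in DESeq2 (-0.47, 0.0269). With single libraries left out the adjusted p ran from 0.00233, without E8.5 replicate 3, to 0.181. Arid1b had 0.08 ± 0.17 (edgeR adjusted p = 0.695), which turned to -0.36 (adjusted p = 8.94e-04) with offsets that follow gene length.

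The Arid1b to Arid1a count ratio averaged 0.889 ± 0.0409 in E8 libraries, 0.969 ± 0.19 in E8.5 libraries, 1.03 ± 0.00962 in E9.5 libraries and 1.27 ± 0.0315 in E14 libraries (SD, n = 3 each). It differed over the stages (exact permutation p = 0.0168, adjusted p = 0.0168 over 5 ratios) and the E14 libraries lay above all others. With offsets that follow gene length the E14 minus E8 log2 difference was 0.15, against 0.51 without them, and the exact p was 0.115. The p was 0.0608 without E14 replicate 2 and 0.0586 without E14 replicate 3. Arid1b is 353 kb long and Arid1a 77.8 kb, and the median of coding genes over 100 kb stood at 0.07, 0.26 and 0.23 in the 3 E14 libraries relative to the E8 mean.

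Actl6a encodes an actin-like subunit of the core module, which in neurons is replaced by Actl6b. It measured 64.8, 69.7 and 67.4 CPM at E8, 48.7, 49.7 and 68.3 CPM at E8.5, 65.9, 72.0 and 73.1 CPM at E9.5 and 50.6, 45.1 and 45.3 CPM at E14. E14 and E8.5 replicates 1 and 2 were low, and E8.5 replicate 3 lay within the range of E8 and E9.5. Actl6a averaged 47.0 ± 3.12 CPM at E14 and 67.3 ± 2.46 CPM at E8 (SD, n = 3 each; log2 -0.52 ± 0.12 SE, edgeR adjusted p = 0.00223). At E14 against E9.5 the log2 fold change was -0.58 ± 0.12 (edgeR adjusted p = 0.00137). The difference of 0.34 ± 0.12 at E9.5 against E8.5 (edgeR adjusted p = 0.0381) was 0.27 with offsets that follow gene length (adjusted p = 0.0583) and 0.36 with the 2 stages fitted alone (0.112), neither called. It was not called when any of 7 libraries was left out: the log2 fold change was 0.34 without E8 replicate 1, 2 or 3 (adjusted p 0.0509 to 0.0553), 0.25 and 0.26 without E8.5 replicate 1 or 2 (0.126 and 0.129), and 0.32 and 0.31 without E9.5 replicate 2 or 3 (0.106 and 0.114). Without E8.5 replicate 3 it was 0.54 (adjusted p = 2.27e-04). Mrpl47, a mitochondrial ribosomal protein gene on the other strand, overlaps Actl6a by 1577 bases and held 46.3% to 97.0% as many counts as Actl6a. It was itself higher at E14 than at E8 (log2 0.35 ± 0.10, edgeR adjusted p = 0.00840). Mrpl47 also averaged 46.0 ± 3.21 CPM at E9.5 and 28.2 ± 3.33 CPM at E8.5 (SD, n = 3 each), the stages between which Actl6a was called higher. The part of Mrpl47 in that call was not tested. How many of the Actl6a counts come from the shared stretch cannot be read from the table. Actl6b lay below the filter, with 1 to 7 counts per library.

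Smarcd1 encodes BAF60a, a broadly expressed member of the SMARCD family, which links BAF complexes to transcription factors. It measured 52.4, 54.5 and 54.7 CPM at E8, 51.2, 39.4 and 47.6 CPM at E8.5, 32.1, 30.4 and 30.8 CPM at E9.5 and 23.4, 25.0 and 24.6 CPM at E14. The stages formed a staircase in which no library of a later stage reached any library of an earlier one. Smarcd1 averaged 24.3 ± 0.803 CPM at E14 and 53.9 ± 1.26 CPM at E8 (SD, n = 3 each; log2 -1.15 ± 0.09 SE, edgeR adjusted p = 4.17e-07). The step at E9.5 against E8.5 was -0.57 ± 0.09 (edgeR adjusted p = 6.18e-04) and that at E14 against E9.5 was -0.35 ± 0.09 (edgeR adjusted p = 0.00513). Both steps were called with offsets that follow gene length and without each library in turn. Gm17349, on the other strand, overlaps 3204 bases of Smarcd1 and held 12% to 19.7% as many counts.

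Smarcd2 encodes BAF60b, known from mouse knockouts for its role in granulocytes. It measured 15.5, 17.3 and 16.8 CPM at E8, 15.0, 14.8 and 18.6 CPM at E8.5, 15.3, 16.3 and 17.4 CPM at E9.5 and 16.7, 15.1 and 15.7 CPM at E14. All stages overlapped. Smarcd2 averaged 15.8 ± 0.812 CPM at E14 and 16.5 ± 0.912 CPM at E8 (SD, n = 3 each), and the log2 fold change of -0.06 ± 0.10 (SE) did not pass the test (edgeR adjusted p = 0.595).

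Smarcd3 encodes BAF60c, the heart and muscle member of the family, which in the mouse acts with cardiac transcription factors such as TBX5 and GATA4. It measured 95.8, 109 and 108 CPM at E8, 88.7, 86.0 and 97.8 CPM at E8.5, 101, 83.1 and 75.4 CPM at E9.5 and 47.7, 46.4 and 49.8 CPM at E14. The earlier stages overlapped and all E14 libraries lay below them. Among the E9.5 libraries Smarcd3 was highest in replicate 1, without which the log2 fold change at E14 against E9.5 was -0.73 (edgeR adjusted p = 7.41e-05). Smarcd3 averaged 47.9 ± 1.73 CPM at E14, 86.6 ± 13.3 CPM at E9.5 and 104 ± 7.11 CPM at E8 (SD, n = 3 each). The log2 fold change at E14 was -0.85 ± 0.10 against E9.5 (SE; edgeR adjusted p = 3.42e-05) and -1.12 ± 0.11 against E8 (edgeR adjusted p = 2.31e-06). Chpf2, a gene on the other strand, overlaps the end of Smarcd3 by 3739 bases and held 57.5% to 82.9% as many counts as Smarcd3. With the counts of the overlapping intervals taken off, the log2 fold change of Smarcd3 at E14 was -1.83 against E9.5 and -2.37 against E8, both still called. Those counts are a lower bound of Smarcd3's own, and Chpf2 was itself lower at E14 than at E8 (log2 -0.62 ± 0.09, edgeR adjusted p = 5.37e-05).

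Among the 3 Smarcd genes the shares of Smarcd1 and Smarcd3 were lower at E14 than at E8 and that of Smarcd2 higher, in the counts as deposited. Per kb of exon, Smarcd3 made up 47.0%, 46.5% and 48.1% of the family's summed level at E14 and 51.9%, 53.7% and 53.5% at E8, with 54.1% to 61.8% at E9.5. Smarcd1 made up 29.4%, 31.9% and 30.2% at E14 and 36.1%, 34.2% and 34.6% at E8. Smarcd2 made up 21.6% to 23.5% at E14 and 11.9% to 12.2% at E8. The Smarcd1 to Smarcd3 count ratio was 0.547, 0.501 and 0.509 at E8, 0.576, 0.459 and 0.487 at E8.5, 0.317, 0.366 and 0.409 at E9.5 and 0.492, 0.539 and 0.494 at E14. It dipped at E9.5, where all libraries lay below those of E8.5 and E14, and the E14 and E8 libraries overlapped. The exact permutation test over the stages gave p = 0.0162 (adjusted p = 0.0168 over 5 ratios), and p = 0.0538 with the replicate block. The direction of the small E14 minus E8 log2 difference (-0.03) was not stable: it was 0.01 with offsets that follow gene length, 0.01 without E8 replicate 1 and 1.12 with the overlapping genes' counts taken off. The Smarcd2 to Smarcd3 ratio averaged 0.159 ± 0.00275 in E8 libraries, 0.177 ± 0.0113 in E8.5 libraries, 0.192 ± 0.0396 in E9.5 libraries and 0.331 ± 0.0177 in E14 libraries (SD, n = 3 each). It was 2.08-fold higher at E14 than at E8, with no overlap between the E14 libraries and the rest (exact permutation p = 0.00565, adjusted p = 0.00942 over 5 ratios), while the Smarcd2 level itself did not pass the test. With the overlapping genes' counts taken off, the E14 minus E8 log2 difference of this ratio was 2.31, against 1.06 in the counts as deposited.

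Dpf2 and Dpf3 encode the double PHD finger subunits, which bind modified histone H3 tails; Dpf3 is known in the mouse for expression in heart and somites. Dpf2 measured 41.9, 46.6 and 44.8 CPM at E8, 44.7, 40.7 and 42.4 CPM at E8.5, 49.4, 51.7 and 51.0 CPM at E9.5 and 39.5, 38.1 and 39.4 CPM at E14. Its E9.5 libraries were the highest and its E14 libraries the lowest. The log2 fold change of Dpf2 was 0.25 ± 0.06 at E9.5 against E8.5 (SE; edgeR adjusted p = 0.0101), -0.38 ± 0.06 at E14 against E9.5 (edgeR adjusted p = 4.10e-04) and -0.19 ± 0.06 at E14 against E8 (edgeR adjusted p = 0.0233). The last was lost without E8 replicate 2 (adjusted p = 0.0919), without E8 replicate 3 (0.0642) and with offsets that follow gene length (0.0537), and the first was not called with the 2 stages fitted alone (0.27, adjusted p = 0.0526). The first was 0.14 with those offsets (adjusted p = 0.0388) and 0.28 without E8.5 replicate 3 (0.00669), both called.

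Dpf3 measured 137, 111 and 115 CPM at E8, 215, 325 and 131 CPM at E8.5, 145, 104 and 93.6 CPM at E9.5 and 30.8, 45.0 and 44.1 CPM at E14. E8.5 replicates 1 and 2 were the highest of the 12 libraries, and all E14 libraries lay below the other 9. Dpf3 averaged 39.9 ± 7.95 CPM at E14 and 121 ± 14.1 CPM at E8 (SD, n = 3 each), a log2 fold change of -1.60 ± 0.29 (SE; edgeR adjusted p = 6.34e-04). Against E9.5 it was -1.51 ± 0.29 (edgeR adjusted p = 0.00127), and with offsets that follow gene length the values were -1.98 against E8 and -1.91 against E9.5. The difference at E9.5 against E8.5 (-0.97 ± 0.29, edgeR adjusted p = 0.0221) was -1.21 without E8.5 replicate 3 (adjusted p = 0.00268) and -1.18 without E9.5 replicate 1 (0.0166). It was not called with those offsets (-0.51, adjusted p = 0.0608) or without E8.5 replicate 2 (-0.60, 0.0973). Nor was it called, at nearer values, with no filter on low counts (-0.95, adjusted p = 0.0598), with the 2 stages fitted alone (-0.95, 0.0756), without E9.5 replicate 2 (-0.91, 0.0774) or without E9.5 replicate 3 (-0.85, 0.0871). Dpf3 was highest among the E9.5 libraries in replicate 1, which had the lowest epicardial, erythroid and visceral endoderm marker sums of that stage, and the part of these in the values was not tested. The Dpf3 to Dpf2 count ratio averaged 2.75 ± 0.47 in E8 libraries, 5.31 ± 2.49 in E8.5 libraries, 2.26 ± 0.595 in E9.5 libraries and 1.03 ± 0.216 in E14 libraries (SD, n = 3 each; exact permutation p = 9.74e-04, adjusted p = 0.00276 over 5 ratios). The E14 ratios lay below all others.

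Without E8.5 replicate 3, the subunits called at E8.5 against E8 had log2 fold changes of 1.12 for Dpf3 (edgeR adjusted p = 0.00739), 0.66 for Arid1a (0.00274), 0.64 for Arid1b (0.0145), -0.49 for Actl6a (0.00140) and -0.28 for Smarcd1 (0.0389). With all 3 libraries these were 0.88 ± 0.29 for Dpf3, 0.47 ± 0.19 for Arid1a, 0.55 ± 0.17 for Arid1b, -0.28 ± 0.12 for Actl6a and -0.23 ± 0.09 for Smarcd1 (SE), with edgeR adjusted p of 0.0754 to 0.148. With single libraries left out, the log2 fold change ran from 0.51 to 1.12 for Dpf3 and 0.32 to 0.66 for Arid1a. It ran from 0.36 to 0.68 for Arid1b, -0.49 to -0.19 for Actl6a and -0.31 to -0.13 for Smarcd1. The highest edgeR adjusted p were 0.319, 0.413, 0.252, 0.411 and 0.332 in the same order. Replicate 3 was the E8.5 library with the smallest shift in coding genes over 100 kb (median 0.13, against 0.33 and 0.58). With all 3 libraries and offsets that follow gene length, Dpf3 stood at 0.44, Arid1a at 0.30 and Arid1b at 0.11, and none was called. With those offsets Actl6a stood at -0.22 and Smarcd1 at -0.12, also not called. Of the 5 subunits, Dpf3, Arid1a and Arid1b have long intervals (77.8 kb to 353 kb), and Actl6a and Smarcd1 have short ones (20.7 kb and 11.7 kb). Smarca2 (173 kb) and Smarca4 (88.1 kb) are long as well. Without E8.5 replicate 3 the log2 fold changes were 0.07 for Smarca2 and 0.08 for Smarca4, and neither was called. With all 3 libraries and offsets that follow gene length these were -0.21 and -0.10, also not called. The parts of gene length and of visceral endoderm RNA in these differences were not tested.

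Compared per kb of exon, the order of the 10 subunits differed between the ends of the time course. At E8 it began with Smarca4 (32.8 ± 1.36 CPM per kb), Dpf3 (28.7 ± 3.33), Smarcd3 (20.3 ± 1.39) and Actl6a (17.3 ± 0.632; SD, n = 3), and Smarca2 was last at 1.23 ± 0.0151. At E14 it began with Smarca4 (22.0 ± 0.591 CPM per kb), Actl6a (12.1 ± 0.803), Arid1b (10.2 ± 1.63), Dpf3 (9.45 ± 1.88) and Smarcd3 (9.36 ± 0.339), of which the last 3 differed by less than the SD of Arid1b. Smarca2 was still last at E14, at 3.33 ± 0.296 CPM per kb. The counts may hold intronic reads, which weigh more in long genes such as Dpf3, Arid1b and Smarca2. Per kb of the whole interval, Smarcd1 was first at E8 (4.60 ± 0.108 CPM per kb) and Dpf2 first at E14 (2.36 ± 0.0478), while Smarca2 was last at E8 and Dpf3 last at E14.

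The rest of the SWI/SNF family was read from a list of 21 further subunits, of which 20 passed the filter and Actl6b did not. At E14 against E8, 12 of the 20 were called, 5 higher and 7 lower, beside the 60.7% of all genes given above, with a median log2 fold change of -0.06. The largest differences were in Bcl11a and Bcl11b, which encode zinc finger subunits known from blood and nerve cells. Bcl11a had 20.7, 28.9 and 26.2 CPM at E14, against 0.239, 0.326 and 0.255 CPM at E8 (log2 6.52 ± 0.54 SE, edgeR adjusted p = 1.75e-06). Of the antisense intervals inside it, Gm12064 alone held 10.4% to 34.4% as many counts per library. The other, 4930538E20Rik, held a further 3.77% to 32.5%. Bcl11b had 5.89, 7.38 and 6.77 CPM at E14, against 0.621, 0.644 and 0.686 CPM at E8 (log2 3.36 ± 0.39, edgeR adjusted p = 1.78e-05). For both genes the E14 libraries stood clear of the E8 libraries. The leukocyte, erythroid, epicardial, endothelial, and fibroblast and matrix marker sums given above were all higher at E14 as well. The part of any of these in the difference was not tested. Dpf1, the third double PHD finger gene, known from neurons, had 0.740, 0.486 and 0.469 CPM at E14, against 2.10, 2.33 and 2.33 CPM at E8 (log2 -2.01 ± 0.20, edgeR adjusted p = 3.55e-06), and an antisense interval that overlaps it held 22.3% to 43.1% as many counts.

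The core subunit Smarcb1, which anchors the complex to the nucleosome, had 34.0, 33.7 and 33.8 CPM at E14, against 49.5, 56.5 and 55.9 CPM at E8 (log2 -0.67 ± 0.07 SE, edgeR adjusted p = 5.27e-06). Bcl7a (log2 -0.61 ± 0.09), Actb, the actin of the complex and of the cytoskeleton (-0.54 ± 0.13), and Phf10, a subunit of the PBAF form (-0.49 ± 0.07), were lower at E14 by the same test, and Bicral, of the non-canonical form, was higher (0.57 ± 0.11). Phf10 and Bicral are uncertain, because intervals on the other strand overlap them and hold 110% to 121% as many counts as Phf10 and 4192% to 9239% as many as Bicral. In the scaffold pair, Smarcc2 was called higher at E14 (0.42 ± 0.06, edgeR adjusted p = 1.03e-04) and Smarcc1 lower (-0.36 ± 0.11, edgeR adjusted p = 0.0106). Dhx30, on the other strand, overlaps Smarcc1 by 123 bases and held 34.4% to 58.0% as many counts. Smarcc1 is 122 kb long and Smarcc2 30.9 kb, and no values with offsets that follow gene length are given for them.

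**Figure D5:**
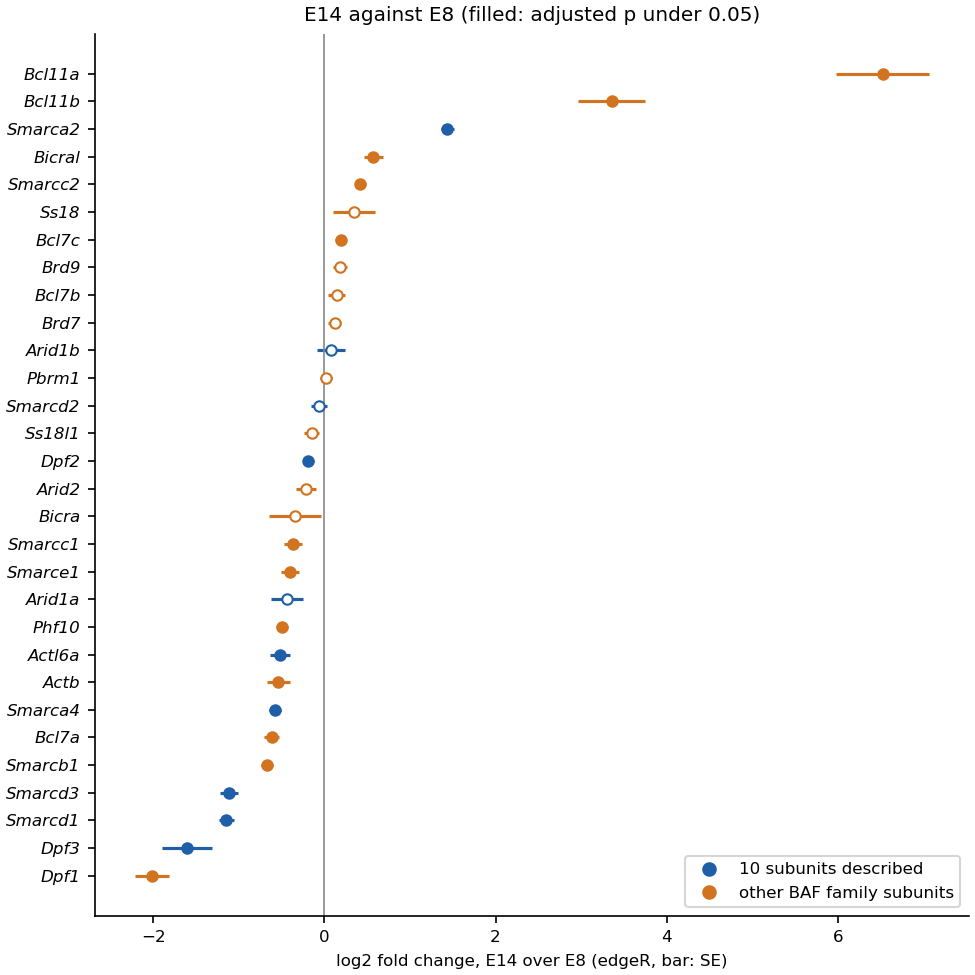
edgeR log2 fold change, E14 over E8, with SE (3 libraries per stage; horizontal axis) for the 10 subunits described (blue) and 20 other family subunits (orange), ordered by value; filled points have an adjusted p under 0.05. The differences ran from -2.01 for Dpf1 to 6.52 for Bcl11a, with Smarca2 at 1.44 and most others between -1 and 1.

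Some genes followed the same course over the libraries. Among 9021 coding genes with a symbol and a mean of at least 10 CPM, those with the highest Pearson r of log2 CPM with Smarca2 over the 12 libraries included Hpse2 (0.997), Pik3r1 (0.994), Il1rapl1 (0.993) and Herc3 (0.993). For Smarcd3 they were Prdm4 (0.990), Chpf2 (0.989), Rae1 (0.987), Klhl21 (0.986) and Kctd5 (0.986), of which Chpf2 overlaps the Smarcd3 interval and may share counts with it. For Actl6a they were Calm2 (0.989), Cacybp (0.989), Snrpd1 (0.988), Prpf38a (0.987) and Riok1 (0.987). High values were common: 606 genes had r over 0.9 with Smarca2, 1071 with Smarcd3 and 554 with Actl6a. The 12 libraries fall into 4 stages and differ by gene length, so r describes the shared course only.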

How the data were processed

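Total RNA of dissected mouse cardiogenic regions was put into TriZol and made into Illumina libraries, per the labels. The authors deposited raw read counts (whole numbers, not normalised) for each gene interval in each library. The submitters' processing notes name the aligner STAR 2.5.0, the transcript assembler Cufflinks 2.2.1 and as builds GRCm38, mm10 and hg38. How reads were counted, with which strand setting and on which annotation, was not given in the sources used here, so overlapping genes on either strand may share counts and intronic reads may be included. Intervals were matched to GENCODE release M21 for strand and exonic length: 42778 had an identical interval, 5650 shared a symbol with an overlapping gene and 281 had no match. Promoter windows came from RefSeq. No per-sample column of the table was left unused.

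The tests used edgeR 4.0.16 in R 4.3.3, with filterByExpr, TMM factors (0.913 to 1.07) and 1 robust quasi-likelihood model with a mean per stage over all 12 libraries (common dispersion 0.0362). p-values were adjusted by Benjamini-Hochberg over all 28846 genes and called under 0.05. SE of the log2 fold changes were derived from the test, as the absolute log2 fold change over the square root of the F statistic. CPM use the scaled library sizes. The 5 paralogue ratios were log2 ratios of counts within a library, tested by an exact permutation test of the F statistic over all assignments of libraries to stages, two-sided by construction. The precision is set by the 3 libraries per stage rather than by the depth. Steps across genes were tested on simulated data.

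Alternatives were RLE and upper-quartile factors, no filter, DESeq2 1.42.0, a replicate block, fits of the compared stages alone, small structural RNA genes left out, offsets following gene length (a lowess trend of log2 ratio on log interval length per library, fraction 0.3), a pseudocount of 0.5 in ratios and each library left out. Taking the counts of overlapping intervals off was chosen after seeing the data. Actl6a was left out there in every comparison, since its remainder was 0 in some E14 libraries. All 10 subunits are named in every comparison, and of the further subunits the 8 called ones with the largest change at E14 against E8, with Smarcc1 and Smarcc2 added after their values were seen. Genes with a like course were the 5 with the highest r for Smarcd3, Smarca2 and Actl6a, of which 1 is not reported here. The members and lists were chosen with earlier results of these data known. Tables and plots were made in Python 3.11 with scipy 1.17.1, numpy 2.4.6, pandas 2.3.3 and matplotlib 3.10.9.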

Additional observations from a re-analysis of the deposited data

How the results depend on the processing

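Over 836 alternatives of the 40 subunit results, 778 kept direction and side of the threshold. The E14 differences of Smarca4, Smarca2, Smarcd1, Smarcd3 and Dpf3 kept both throughout. Those of Actl6a kept both in every alternative but that with overlapping counts taken off, from which Actl6a was left out. At E8.5 against E8 the count of called subunits was 2 in DESeq2 and 0 to 5 with single libraries left out, against 0. At E9.5 against E8.5 it was 3 with the stages fitted alone, 3 with offsets following gene length and 4 to 7 with single libraries left out, against 7. At E14 it was 7 against E9.5 with every library left out, and 6 to 8 against E8. These counts are given without the share of all genes called in the same fits. Offsets following gene length turned the log2 fold change at E8.5 against E8 for Smarcd2 (0.082), Smarca2 (-0.21), Smarca4 (-0.10) and Dpf2 (0.022), at E9.5 against E8.5 for Smarcd2 (-0.15), Smarca2 (0.064) and Smarca4 (0.19), at E14 against E9.5 for Smarcd2 (0.052) and Arid1b (-0.31), and at E14 against E8 for Arid1b (-0.36); of these only Smarca2 had been called. Upper-quartile factors turned Smarcd2 at E9.5 against E8.5 (-0.022). Single libraries left out turned values near 0: the ranges were -0.18 to 0.023 for Smarcd2 at E8.5 against E8, -0.044 to 0.16 for Smarcd2, -0.20 to 0.022 for Smarcd3 and -0.065 to 0.0061 for Smarca4 at E9.5 against E8.5, -0.11 to 0.0012 for Smarcd2 at E14 against E9.5 and -0.065 to 0.21 for Arid1b at E14 against E8. The E14 minus E8 log2 difference of Smarcd1 to Smarcd3 was 0.0053 with length-following values, 1.12 with overlapping counts off and -0.073 to 0.0085 with single libraries left out, against -0.030. That of Arid1b to Arid1a was 0.15 with length-following values and 0.48 to 0.55 with single libraries left out. The causes were not tested.

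Replicate numbers showed no clear pairing of the libraries: over 18 same-number pairs the correlation of deviations ran from -0.08 to 0.13, with 1 over 0.1. Pairs with different numbers ran from -0.17 to 0.19. These correlations cannot exclude a shared litter or day. With the replicate block the exact p of Smarcd1 to Smarcd3 was 0.0538 (log2 difference -0.030), and the block changed no other call.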
